A study of Mus musculus with 6 samples.

Results

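Alpha-fetoprotein (Afp), glypican 3 (Gpc3), Bex1, Bex2, the desaturase Scd2, Lin28b and Igf2bp3 are genes of fetal liver, and albumin (Alb) is their counterpart in mature hepatocytes. They were chosen by gene symbol, which gave 8 of the 24489 gene entries of a read count table from mouse liver. The table holds 6 libraries of polyadenylated RNA, taken at postnatal day 10 from a lobe of the liver of untreated pups on a C3H/C57bl6J strain background. Of these, 3 are Jag1+/+, the wild-type genotype, and 3 are Jag1Ndr/Ndr, homozygous for the Nodder (Ndr) allele of the Notch ligand gene Jag1. No other allele, transgene or treatment is named in the labels. The Ndr allele is a missense change, so the level of Jag1 RNA does not check them. They do not say whether each library is a separate animal, so the p-values below measure the spread between these libraries, part of which may be technical.

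Fetal hepatocytes secrete alpha-fetoprotein as a major plasma protein. Around birth the gene is repressed in the liver while albumin, its neighbour on the chromosome, stays active, and alpha-fetoprotein returns in regenerating liver, in progenitor-like cells and in hepatocellular carcinoma. The homeobox factor Zhx2 and the zinc finger factor Zbtb20 are known repressors of Afp after birth. Lin28b and Igf2bp3 belong to a fetal RNA-binding programme: Lin28 proteins block the maturation of let-7 microRNAs, and Igf2bp3 is among the messages that let-7 represses.

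Alpha-fetoprotein, Bex1 and Scd2 rose in Jag1Ndr/Ndr livers, by 5.68-fold, 10.3-fold and 4.80-fold. Gpc3, Bex2, Igf2bp3 and Alb did not pass the test, and Lin28b had too few reads to be tested. Thus 3 of the 7 members tested were higher and 0 lower by edgeR's quasi-likelihood test (adjusted p under 0.05, Benjamini-Hochberg over 13819 genes). Of all genes tested, 4.73% were called higher and 2.90% lower. The members were chosen with earlier results of these data known, so setting them beside these shares is no test of the members as a set. Among the members, 4 of 7 had genotypes whose CPM (read counts relative to the library total, scaled by TMM) did not overlap, namely Afp, Bex1, Scd2 and Alb, against 29.0% of all genes tested. Alb was the one with an unadjusted p under 0.05 and no call, and DESeq2 called it lower. Its unadjusted edgeR p of 0.0467 ranked 3016th of the 13819 genes tested, so an unadjusted p under 0.05 was common among all genes. Higher genes made up 62.0% of all calls, and 74.3% with library totals in place of TMM, which shifted the median gene by 0.13 on the log2 scale. In the deposited RPKM with pseudocounts of 1 and 0.1 they made up 78.7% and 81.1%, with shifts of 0.21 and 0.22. These RPKM carry a scaling factor applied in the direction opposite to edgeR's, and with that factor dividing (pseudocount 0.1) the share was 57.5% and the shift -0.03. Leaving out Jag1+/+ replicate 1, 2 or 3 gave 1, 2 or 1 members called, and leaving out Jag1Ndr/Ndr replicate 1, 2 or 3 gave 4, 3 or 3.

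**Figure D1:**
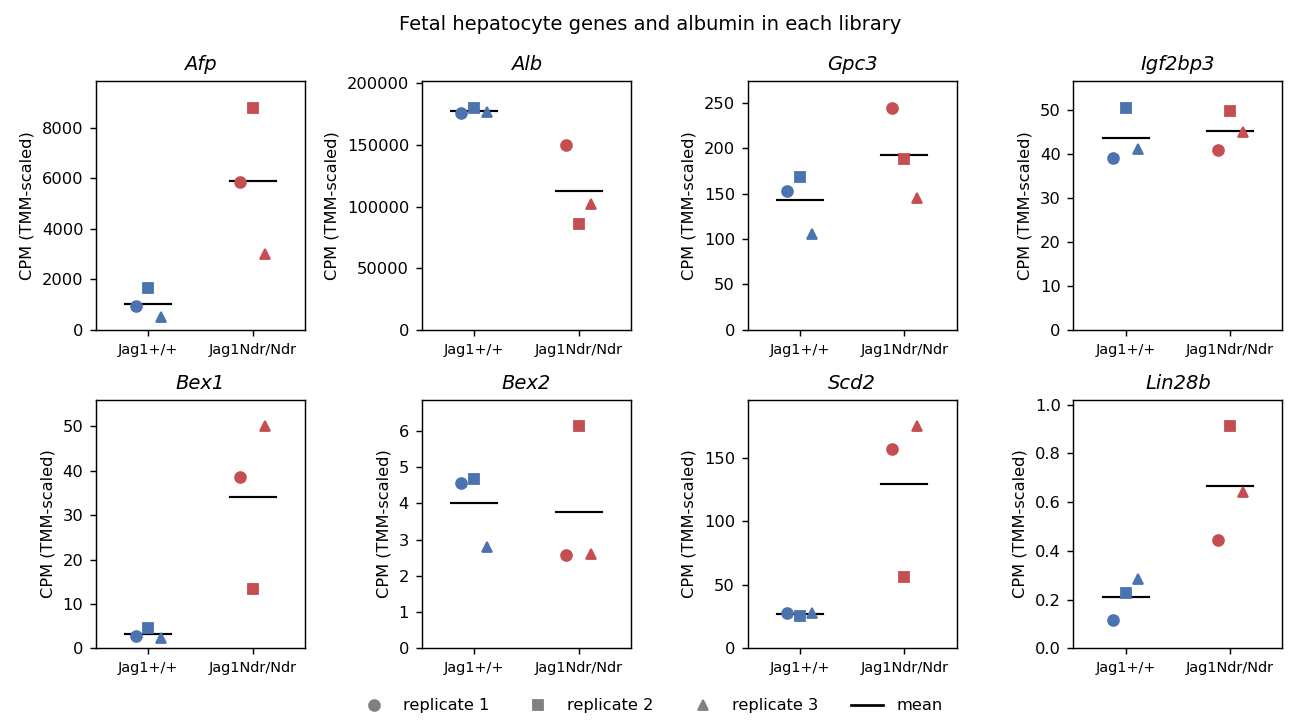
Each panel shows 1 gene, with CPM after TMM scaling on the vertical axis (from 0) and the 2 genotypes on the horizontal axis. Points are libraries, with the shape giving the replicate number, and the line is the mean of 3. Afp, Bex1, Scd2 and Lin28b lie higher in each Jag1Ndr/Ndr library than in any Jag1+/+ library, and Alb lies lower.

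Reads per library ranged from 12992592 to 59653111, Jag1Ndr/Ndr replicate 2 being the deepest and replicate 1 the shallowest. The Jag1Ndr/Ndr libraries lay farther from each other than the Jag1+/+ libraries, at 46.7, -43.6 and -19.9 against 2.14 to 7.35 on the second principal component. Reads of Xist and of Y-linked genes marked Jag1+/+ replicate 1 and Jag1Ndr/Ndr replicates 2 and 3 as female and the others as male. All 24 mature hepatocyte genes listed had enough reads for the test. RNA of whole liver cannot tell fewer cells of a type from less RNA per cell.

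Afp and Alb belong to the albumin family, with afamin (Afm), a vitamin E-binding plasma protein, and Gc, the vitamin D-binding protein. On mm10 (GRCm38) Alb lies on chromosome 5 at positions 90460870 to 90476602, Afp at 90490714 to 90508907 and Afm at 90518949 to 90553544. The gaps between these neighbours are 14.1 kb and 10.0 kb, while Gc lies 1003.0 kb from Alb. The RefSeq promoter windows of the 3 neighbours (GRCm38.p6, plus strand, 250 bases before to 50 after the start) are shown because 1 of these genes rose, 1 fell and 1 did not pass. Capitals mark GTTAAT, the half-site of the hepatocyte factor HNF1, searched on both strands.
Afp, chr5:90490464-90490763: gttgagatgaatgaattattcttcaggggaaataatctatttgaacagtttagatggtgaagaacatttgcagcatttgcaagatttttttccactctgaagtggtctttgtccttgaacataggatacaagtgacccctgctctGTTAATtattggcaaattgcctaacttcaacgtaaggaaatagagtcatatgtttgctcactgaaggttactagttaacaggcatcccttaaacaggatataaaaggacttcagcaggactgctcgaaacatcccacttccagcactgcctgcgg
Alb, chr5:90460620-90460919: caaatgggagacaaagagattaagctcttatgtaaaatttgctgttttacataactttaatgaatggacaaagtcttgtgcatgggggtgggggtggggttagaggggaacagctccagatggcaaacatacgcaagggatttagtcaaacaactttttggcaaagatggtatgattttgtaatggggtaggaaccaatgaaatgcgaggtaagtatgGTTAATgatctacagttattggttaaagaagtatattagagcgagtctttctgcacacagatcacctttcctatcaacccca
Afm, chr5:90518699-90518998: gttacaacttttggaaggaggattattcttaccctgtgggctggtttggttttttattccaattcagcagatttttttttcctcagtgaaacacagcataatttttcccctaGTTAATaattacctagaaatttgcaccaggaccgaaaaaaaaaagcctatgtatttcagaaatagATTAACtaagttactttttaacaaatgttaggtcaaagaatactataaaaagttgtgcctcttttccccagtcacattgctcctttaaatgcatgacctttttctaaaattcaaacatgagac

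The motif begins at position -105 in the Afp window and at -32 in the Alb window, counted from the start site. The Afm window holds it at -138 and, on the other strand, at -73, and the Gc window at -52. It was found in 7.14% of 32544 promoter windows of the same length, and in none of the windows of Gpc3, Bex1, Bex2, Lin28b and Igf2bp3. The table of promoters held 7 of the 8 members. A match of letters shows no binding.

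Afp measured 944, 1641 and 517 CPM in Jag1+/+ replicates 1, 2 and 3. In Jag1Ndr/Ndr replicates 1, 2 and 3 it measured 5857, 8785 and 2984 CPM. All Jag1Ndr/Ndr libraries exceeded all Jag1+/+ libraries, the lowest of them being 1.82 times the highest wild-type value. The spread was wide in both genotypes, with an SD of 54.9% of the mean in Jag1+/+ and 49.4% in Jag1Ndr/Ndr livers. The means were 1034 ± 567 and 5876 ± 2901 CPM (SD, n = 3 each). On the log2 scale this change (Jag1Ndr/Ndr over Jag1+/+) was 2.51 ± 0.51 (SE, edgeR adjusted p = 0.0240), which ranked 117th by size among 653 genes called higher. Afp lost its call without Jag1+/+ replicates 1 and 3 (edgeR adjusted p = 0.103 and 0.0784), with log2 changes of 2.44 and 2.18. The call was also lost with sex as a covariate (edgeR adjusted p = 0.0576), by limma voom with quality weights (0.0507) and by limma on deposited RPKM at a pseudocount of 1 (0.0569). Each sex holds 1 library of one of the genotypes, so no test within a sex could be made.

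Alb was by far the most abundant member. Its share of all reads was 17.3%, 17.2% and 16.9% in wild-type replicates 1, 2 and 3 and 13.03%, 10.3% and 10.95% in the mutant ones. In CPM it measured 176061, 180201 and 176826 in Jag1+/+ replicates 1, 2 and 3. The Jag1Ndr/Ndr replicates 1, 2 and 3 had 150001, 86174 and 102119 CPM. Thus the wild-type libraries had an SD of 1.24% of their mean, and each mutant library lay below them by a different amount. The log2 change of -0.66 ± 0.28 did not pass (edgeR adjusted p = 0.214). Alb passed as lower without Jag1Ndr/Ndr replicate 1 (log2 change -0.92, edgeR adjusted p = 0.0324), by DESeq2 (adjusted p = 0.0485), with library totals (0.0462) and by limma voom with quality weights (0.0415).

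The ratio of Afp to Alb within a library does not depend on scaling. Per length (RPKM, reads relative to library total and to the length assigned to the gene), Afp stood at 0.525%, 0.892% and 0.286% of Alb in Jag1+/+ replicates 1, 2 and 3. It stood at 3.82%, 9.98% and 2.86% in Jag1Ndr/Ndr replicates 1, 2 and 3. The mean ratio was 0.568% ± 0.305 in Jag1+/+ and 5.56% ± 3.86 in Jag1Ndr/Ndr livers (SD, n = 3 each). On the log2 scale the ratio was 3.22 higher in Jag1Ndr/Ndr livers, or 9.34-fold, with no overlap between genotypes. An exact two-sided permutation test over the 6 libraries gave p = 0.1, the smallest that 3 against 3 allows. Even in the library with the most Afp, Alb was still 10.0 times as abundant per length. Afp and Alb together took 16.9% to 17.4% of the reads in Jag1+/+ and 11.3% to 13.5% in Jag1Ndr/Ndr libraries, so that the gain in Afp reads was smaller than the loss in Alb reads.

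**Figure D2:**
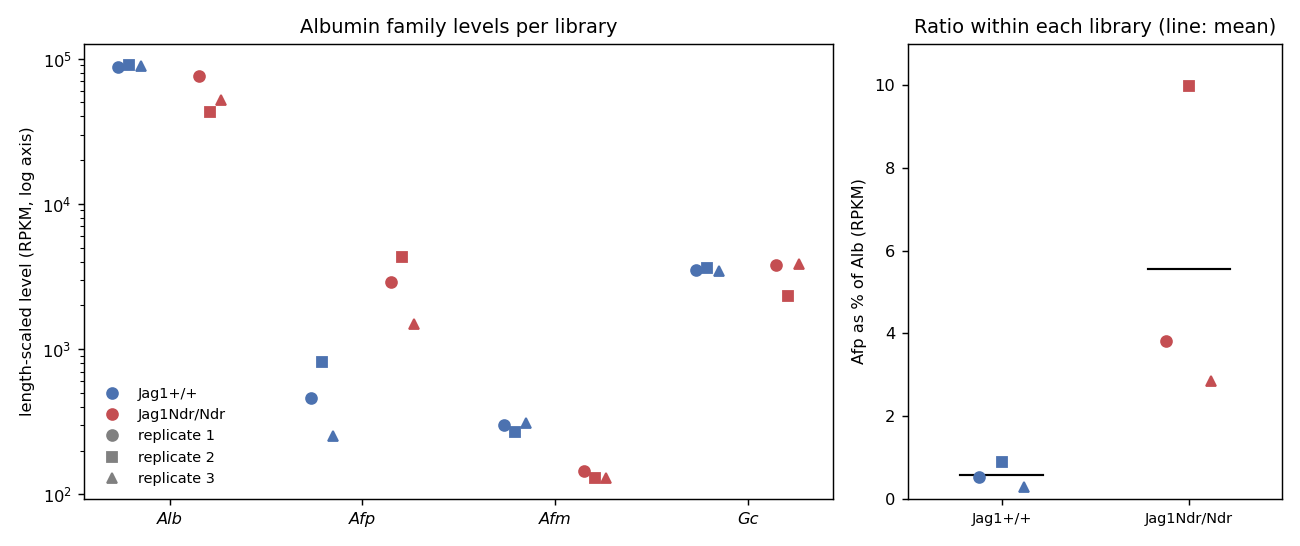
The left panel shows the 4 albumin family genes in each library as length-scaled RPKM on a log axis, coloured by genotype with the shape giving the replicate number. The right panel shows Afp RPKM as a percentage of Alb RPKM in each library (line: mean), which is 0.286% to 0.892% in Jag1+/+ and 2.86% to 9.98% in Jag1Ndr/Ndr livers.

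Afm, on the other side of Afp, fell. It measured 596, 529 and 612 CPM in Jag1+/+ and 284, 257 and 251 CPM in Jag1Ndr/Ndr replicates 1, 2 and 3. The genotypes lay far apart and both were tight, and the log2 change was -1.13 ± 0.17 (edgeR adjusted p = 0.00836). Afm lost its call without Jag1+/+ replicate 3 (edgeR adjusted p = 0.0518) and by limma on the deposited RPKM with pseudocounts of 1 and 0.1 (adjusted p = 0.211 and 0.304), and it kept the call by limma with the header factors dividing (adjusted p = 0.0149). Of its annotated exon bases, 3.55% overlap Gm42109 on the opposite strand, whose reads cannot be told apart, since the library kit does not mark strand. Gc had 6242 ± 88.9 and 5829 ± 1510 CPM (log2 change -0.10 ± 0.24, edgeR adjusted p = 0.866), a value that was 0.11 in the deposited RPKM, -0.15 in RPKM with the header factors dividing, and 0.11 without Jag1Ndr/Ndr replicate 2. So 1 of 4 albumin family genes rose and 1 fell, with a median log2 change of -0.38 against 0.0041 over all genes tested. In length-scaled RPKM the order was Alb, Gc, Afp and Afm in both genotypes, with means of 89176, 3532, 509 and 293 in Jag1+/+ and of 56930, 3321, 2895 and 135 in Jag1Ndr/Ndr livers. Afp and Afm overlapped in their ranges in Jag1+/+ livers (254 to 810 and 269 to 309.7), and the ranges of Afp and Gc overlapped in Jag1Ndr/Ndr livers.

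Gpc3, on chromosome X at positions 52272426 to 52613974, encodes a cell-surface heparan sulfate proteoglycan of fetal liver and hepatocellular carcinoma. It measured 153, 169 and 106 CPM in Jag1+/+ replicates 1, 2 and 3. In Jag1Ndr/Ndr replicates 1, 2 and 3 it measured 244, 188 and 145 CPM. The genotypes overlapped, since Jag1Ndr/Ndr replicate 3 lay below Jag1+/+ replicates 1 and 2. The log2 change of 0.43 ± 0.25 did not pass (edgeR adjusted p = 0.357), nor did it under any of the 19 alternatives, where it ranged from 0.20 to 0.67. Of 5 glypicans tested edgeR called 0. An unadjusted p below 0.05 was seen for 0, and calls numbered 0 with DESeq2 and 0 with limma voom with quality weights. Gpc4, another glypican of the cell surface, stood at 54.2 ± 6.72 and 45.8 ± 1.46 CPM (log2 change -0.24 ± 0.14, 0.01 in the deposited RPKM and -0.25 with the header factors dividing), and Gpc5 had no reads.

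Bex1 and Bex2 encode small brain-expressed X-linked proteins that act as adaptors in signalling. Bex1 lies on chromosome X at positions 136213972 to 136215513 and Bex2 at 136066565 to 136068236, 145.7 kb apart. Bex1 measured 2.84, 4.58 and 2.38 CPM in Jag1+/+ replicates 1, 2 and 3, from 49, 141 and 92 reads. In Jag1Ndr/Ndr replicates 1, 2 and 3 it measured 38.6, 13.4 and 50.03 CPM, from 436, 954 and 938 reads. The gene was low in every wild-type library, and the lowest mutant library, replicate 2, was still 2.92 times the highest wild-type value. Bex1 thus had a log2 change of 3.37 ± 0.49 (edgeR adjusted p = 0.00836), 49th by size among the genes called higher. Bex1 was past the threshold under all 19 alternatives, with log2 changes between 2.98 and 3.76 and adjusted p-values of at most 0.0478.

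Bex2 did not follow. It had 4.57, 4.67 and 2.79 CPM in Jag1+/+ and 2.57, 6.13 and 2.61 CPM in Jag1Ndr/Ndr replicates 1, 2 and 3. Here Jag1Ndr/Ndr replicate 2 was the highest library, and for Bex1 it was the lowest of its genotype. The log2 change of -0.04 ± 0.39 did not pass (edgeR adjusted p = 0.971), and its sign turned with library totals (0.13) and in the deposited RPKM (0.09 at a pseudocount of 1), though not with the header factors dividing (-0.19). Some reads of these genes may match other genes as well. Of the 50-base words in the annotated Bex1 transcripts, 30.9% occur in those of other genes, chiefly Bex4 and Tceal7, and 22.2% of those of Bex2. The read counter is not given, so whether such reads were counted or dropped is not known. Tceal7 overlaps Bex1 on the opposite strand and had 0 reads in Jag1+/+ and 3 in Jag1Ndr/Ndr libraries.

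Of 8 Bex and Tceal genes tested, 3 rose and 0 fell, Bex1 being 1 of the 3 and Tceal5 and Wbp5 the others, with a median log2 change of 0.68 against 0.0041 over all genes. Leaving out 1 library left 1 to 3 of them called higher. Tceal5, which lies 10.1 kb from Bex1, had 2.66, 2.24 and 1.73 CPM in Jag1+/+ and 12.9, 5.01 and 17.9 CPM in Jag1Ndr/Ndr replicates 1, 2 and 3. As with Bex1, the genotypes did not overlap and Jag1Ndr/Ndr replicate 2 was the lowest of the mutant libraries. The log2 change was 2.43 ± 0.45 (edgeR adjusted p = 0.0174), and Tceal5 lost its call without Jag1+/+ replicates 1, 2 and 3 (edgeR adjusted p = 0.0648, 0.0766 and 0.0781). Wbp5, also named Tceal9, rose from 50.2 ± 5.07 to 76.7 ± 2.53 CPM (log2 change 0.61 ± 0.14, edgeR adjusted p = 0.0372). Wbp5 lost its call under 9 of 19 alternatives, among them sex as a covariate (edgeR adjusted p = 0.0897). The omission of Jag1+/+ replicate 1, 2 or 3 or of Jag1Ndr/Ndr replicate 3 also ended its call (edgeR adjusted p = 0.0918, 0.165, 0.2004 and 0.0824). Ngfrap1, also named Bex3, stood at 28.6 ± 7.18 and 47.9 ± 6.89 CPM (log2 change 0.74 ± 0.21, edgeR adjusted p = 0.0764), and it passed by DESeq2 (adjusted p = 0.0286) and in edgeR with a replicate block (0.0384). Bex4 had a log2 change of 0.76 ± 0.41 (edgeR adjusted p = 0.328), Tceal1 of -0.23 and Tceal8 of 0.05.

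Scd2 encodes a stearoyl-CoA desaturase, which makes monounsaturated fatty acids, and is the form of fetal and newborn liver, whereas Scd1 is that of adult liver. Scd2 lies on chromosome 19 at positions 44293676 to 44306864, 87.6 kb from Scd1. It measured 27.8, 25.2 and 27.6 CPM in Jag1+/+ replicates 1, 2 and 3. In Jag1Ndr/Ndr replicates 1, 2 and 3 it measured 157, 55.8 and 175 CPM. The wild-type libraries were nearly equal, and the lowest mutant library, replicate 2, was 2.01 times the highest of them. For Scd2 the log2 change was 2.26 ± 0.38 (edgeR adjusted p = 0.0124). Scd2 lost its call without Jag1+/+ replicates 1, 2 and 3 (edgeR adjusted p = 0.0617, 0.0618 and 0.0549), with log2 changes of 2.28, 2.22 and 2.28.

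Scd1 had a fitted change of the same size with a wider spread. It measured 50.1, 26.4 and 52.7 CPM in Jag1+/+ and 214, 32.9 and 375 CPM in Jag1Ndr/Ndr replicates 1, 2 and 3. Jag1Ndr/Ndr replicate 2 lay within the wild-type range, and the log2 change of 2.27 ± 0.72 did not pass (edgeR adjusted p = 0.0992). Without that library it passed, at 2.78 (edgeR adjusted p = 0.00466). Of the 50-base words of Scd2 transcripts, 3.97% occur in transcripts of other genes, Scd1 among them. Among 10 desaturases and elongases tested, 4 rose and 1 fell (median log2 change 0.53), Scd2 being 1 of the 4, and 2 to 5 rose when 1 library was left out. Elovl7 and Elovl6, elongases of fatty acids, rose from 2.31 ± 0.367 to 11.7 ± 2.28 CPM and from 8.05 ± 1.61 to 37.2 ± 8.49 CPM (edgeR adjusted p = 0.00269 and 0.00300). Elovl5, an elongase of polyunsaturated fatty acids, fell from 602 ± 95.4 to 268 ± 45.1 CPM (edgeR adjusted p = 0.0145) and lost its call without Jag1+/+ replicates 1 and 3 (0.0655 and 0.0745).

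Lin28b, on chromosome 10 at positions 45376617 to 45486314, was near the limit of detection. It had 2, 7 and 11 reads in Jag1+/+ replicates 1, 2 and 3. It had 5, 65 and 12 reads in Jag1Ndr/Ndr replicates 1, 2 and 3. In CPM the genotypes did not overlap (0.116, 0.227 and 0.284 against 0.443, 0.912 and 0.640), but 65 of 82 mutant reads came from the deepest library. The level that no read still permits (3 reads) is 0.266 CPM in the shallowest library and 0.0421 in the deepest. Over pooled reads the ratio of rates was 4.11 (95% exact interval 2.50 to 7.08, for counting error only), and the ratio of the mean CPM was 3.18. When no filter was applied Lin28b had a log2 change of 1.64 ± 0.50 and did not pass (edgeR adjusted p = 0.0792), nor by DESeq2 (adjusted p = 0.118).

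Igf2bp3, which binds Igf2 and other messages in fetal tissue, lies on chromosome 6 at positions 49085218 to 49215469. It measured 39.0, 50.5 and 41.1 CPM in Jag1+/+ and 40.95, 49.8 and 44.96 CPM in Jag1Ndr/Ndr replicates 1, 2 and 3. The Jag1Ndr/Ndr libraries all lay within the wild-type range, and the log2 change was 0.06 ± 0.16 (edgeR adjusted p = 0.883). It was -0.02 without Jag1+/+ replicate 1 and without Jag1Ndr/Ndr replicate 2. Part of the Igf2bp3 transcripts (18.1% of their 50-base words) overlaps Malsu1 on the opposite strand.

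In the list of the Lin28 and let-7 pathway, which includes both genes, 1 of 13 genes tested rose and 0 fell (median log2 change 0.22). The gene was Cdc25a, a phosphatase of cell cycle entry, which rose from 13.9 ± 1.37 to 28.6 ± 4.31 CPM (log2 change 1.05 ± 0.17, edgeR adjusted p = 0.0116). Cdc25a lost its call without Jag1+/+ replicates 1, 2 and 3 (edgeR adjusted p = 0.0525, 0.0547 and 0.0635) and in the deposited RPKM, though not with the header factors dividing (adjusted p = 0.0191 by limma). Lin28a, the paralog of Lin28b, had 0.927, 0.844 and 0.878 CPM in Jag1+/+ and 0.620, 3.44 and 2.35 CPM in Jag1Ndr/Ndr replicates 1, 2 and 3. Its genotypes overlapped, and the log2 change of 1.35 ± 0.51 did not pass (edgeR adjusted p = 0.162) except without Jag1Ndr/Ndr replicate 1 (0.0190) and by limma voom with quality weights (0.0387). Igf2bp2, Hmga2 and Myc, which let-7 is known to target, had log2 changes of 0.55 ± 0.24, 0.46 ± 0.36 and 0.69 ± 0.41 (edgeR adjusted p between 0.2203 and 0.519). Mature let-7 is not measured in libraries of polyadenylated RNA.

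**Figure D3:**
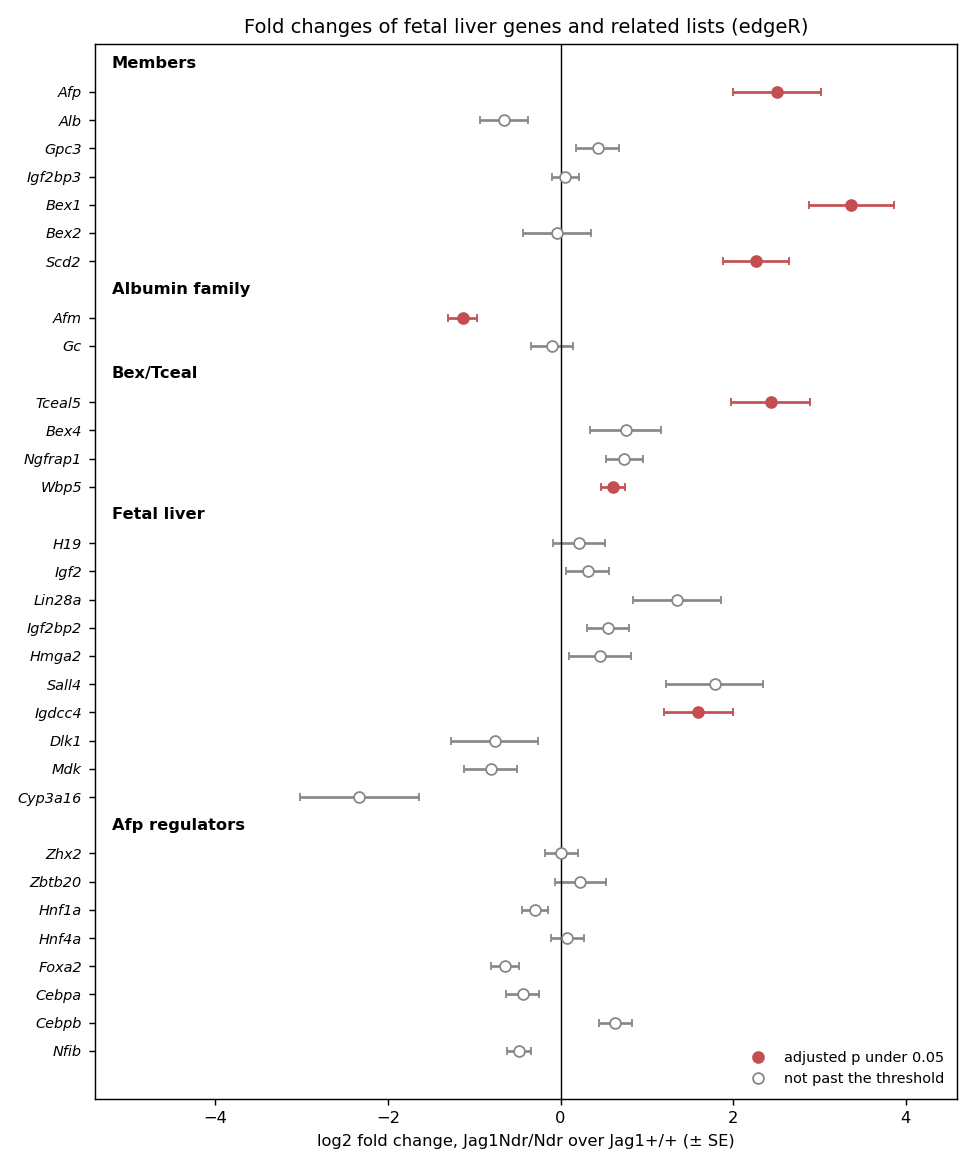
Points are log2 changes of Jag1Ndr/Ndr over Jag1+/+ livers with their standard errors (edgeR, n = 3 libraries per genotype), for the tested members and for genes of related lists. Filled red points passed an adjusted p of 0.05. Afp, Bex1, Scd2, Tceal5, Igdcc4 and Wbp5 are filled to the right of 0 and Afm to the left, and no Afp regulator is filled. Zhx2, Hnf4a, Igf2bp3, Bex2 and Gc lie near 0 and turned sign under some alternatives.

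Among 15 other fetal liver genes tested, 1 rose and 0 fell (median log2 change 0.33 against 0.0041 over all genes). This was Igdcc4, also named Nope, a surface protein of fetal liver stem and progenitor cells. It measured 9.67, 18.6 and 5.87 CPM in Jag1+/+ and 25.8, 44.3 and 32.9 CPM in Jag1Ndr/Ndr replicates 1, 2 and 3, with no overlap. The log2 change was 1.60 ± 0.40 (edgeR adjusted p = 0.0479), and Igdcc4 lost its call under 11 of 19 alternatives. Among these were leaving out Jag1+/+ replicates 1 and 3 (edgeR adjusted p = 0.161 and 0.1098) and Jag1Ndr/Ndr replicates 1, 2 and 3 (0.0535, 0.0987 and 0.0842). Sall4, a transcription factor of fetal progenitors, stood at 0.479 ± 0.381 and 1.64 ± 0.521 CPM (log2 change 1.79 ± 0.57, edgeR adjusted p = 0.0991), and it passed by DESeq2 (0.0356). Of the 15, 10 had a log2 change above 0, as did 50.5% of all genes tested. Mdk and Dlk1 lay below 0, at -0.81 ± 0.31 and -0.76 ± 0.50, and did not pass (edgeR adjusted p = 0.157 and 0.428). Cyp3a16, a cytochrome P450 of fetal and newborn mouse liver, also differed in that direction. It had 237, 201 and 309.8 CPM in Jag1+/+ and 27.2, 108 and 12.1 CPM in Jag1Ndr/Ndr replicates 1, 2 and 3, and its log2 change of -2.33 ± 0.69 did not pass (edgeR adjusted p = 0.0806). Without Jag1Ndr/Ndr replicate 2 it passed (-3.67, edgeR adjusted p = 0.00328), as with the stated replicate number as a block (0.0450), without a filter (0.0441) and by limma voom with quality weights (0.0109).

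H19 and Igf2, imprinted genes of fetal growth that lie together, were abundant in both genotypes. H19 measured 27156, 35723 and 28989 CPM in Jag1+/+ and 43776, 22550 and 40484 CPM in Jag1Ndr/Ndr replicates 1, 2 and 3. The mutant libraries lay on both sides of the wild-type range, and the log2 change was 0.22 ± 0.30 (edgeR adjusted p = 0.737). Igf2 had means of 9286 ± 1457 and 11579 ± 2497 CPM (log2 change 0.32 ± 0.25, edgeR adjusted p = 0.521). Afp, H19, Gpc3 and the lipoprotein lipase gene Lpl are known targets of Zhx2, and of these 4 Afp was the 1 that passed edgeR's test. Lpl stood at 717 ± 34.8 and 609 ± 240.1 CPM (log2 change -0.24 ± 0.29, and 0.04 without Jag1Ndr/Ndr replicate 2).

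Of 24 regulators of Afp, edgeR called 0, while 5 had an unadjusted p below 0.05, 3 were called with DESeq2 and 1 with limma voom with quality weights (median log2 change -0.20). Among all 13819 genes tested, an unadjusted edgeR p of 0.0467 ranked 3016th, so values below 0.05 were common. Zhx2 had 11.99, 9.02 and 11.5 CPM in Jag1+/+ and 9.75, 10.7 and 12.2 CPM in Jag1Ndr/Ndr replicates 1, 2 and 3. Its ranges overlapped almost wholly, with a log2 change of 0.01 ± 0.19 (edgeR adjusted p = 0.985) that was -0.12 without Jag1+/+ replicate 2. Zbtb20 stood at 1.30 ± 0.0897 and 1.52 ± 0.357 CPM (log2 change 0.23 ± 0.30). Hnf4a, a nuclear receptor of hepatocyte identity, was the most abundant of the named regulators, at 425 ± 68.5 and 449 ± 59.3 CPM (log2 change 0.08 ± 0.20, and -0.02 without Jag1+/+ replicate 1). Foxa2, a pioneer factor of liver, had 34.2, 28.3 and 34.4 CPM in Jag1+/+ and 17.5, 20.98 and 23.5 CPM in Jag1Ndr/Ndr replicates 1, 2 and 3. Its genotypes did not overlap, and its log2 change of -0.64 ± 0.17 just missed the threshold (edgeR adjusted p = 0.0545), passing without a filter (0.0486) and by DESeq2 (0.0154). Cebpb, a C/EBP factor of the acute phase, and Nfib, a nuclear factor I protein, had log2 changes of 0.63 ± 0.19 and -0.48 ± 0.14 (edgeR adjusted p = 0.0859 and 0.0795), and both passed by DESeq2 (0.0415 and 0.0360).

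Of 24 mature hepatocyte genes besides Alb, 3 fell and 0 rose, with a median log2 change of -0.26, and 2 to 5 fell when 1 library was left out. Ttr, the thyroxine carrier transthyretin, had 16835, 15598 and 15412 CPM in Jag1+/+ and 8554, 4526 and 5403 CPM in Jag1Ndr/Ndr replicates 1, 2 and 3. The genotypes lay well apart, and the log2 change was -1.37 ± 0.28 (edgeR adjusted p = 0.0238). Omitting Jag1+/+ replicate 1, 2 or 3 or Jag1Ndr/Ndr replicate 3 ended the call of Ttr (edgeR adjusted p = 0.0962, 0.101, 0.104 and 0.0697). The cytochromes P450 Cyp1a2 and Cyp2e1, of pericentral hepatocytes, fell from 352 ± 91.5 to 31.5 ± 4.68 and from 3640 ± 246 to 1071 ± 216 CPM (edgeR adjusted p = 0.000818 and 0.00454). Transferrin (Trf) stood at 45122 ± 5146 and 64426 ± 23084 CPM (log2 change 0.51 ± 0.30, edgeR adjusted p = 0.368). Its genotypes overlapped, and neither Trf nor Alb passed edgeR's test.

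Markers of other cells also differed in level between the genotypes, and their part in the results for Afp, Bex1 and Scd2 was not tested. Summed CPM of 11 macrophage markers were 895 to 1550 in Jag1+/+ and 1858 to 3111 in Jag1Ndr/Ndr libraries, and 2 of 11 passed as higher. Those of 9 neutrophil lineage markers were 622 to 753 and 1067 to 2391, with 6 of 9 passing as higher. The 13 erythroid markers found summed to 122 to 227 and 216 to 561 CPM, which overlapped, with 3 of 9 tested higher. Over all genes tested, the shares called were 4.73% higher and 2.90% lower. Both adult alpha globin entries (Hba-a1 and Hba-a2) were at 0 in every library. The beta globin entries Hbb-bs and Hbb-b1 had 1 and 0 reads over all Jag1+/+ and 0 and 4 over all Jag1Ndr/Ndr libraries. In Jag1Ndr/Ndr libraries Hbb-b1 averaged 56.7 in deposited RPKM but 0.0684 CPM. Adult globin levels therefore cannot be read from these entries, which add almost nothing to the erythroid sum. The reason was not tested. Embryonic globins summed to at most 0.107 CPM. When 1 library was left out, the markers called higher numbered 0 to 2 for macrophages, 0 to 9 for neutrophils and 0 to 7 for erythroid cells. Mesothelial markers summed to 5.48 to 25.4 and 27.8 to 34.3 CPM, and 0 of 5 passed by edgeR (2 had an unadjusted p below 0.05, 1 was called with DESeq2 and 1 with limma voom with quality weights). The sums of 10 cholangiocyte markers (146 to 194 and 90.9 to 175 CPM) and of 13 stellate cell and fibroblast markers (1063 to 1238 and 846 to 1327 CPM) overlapped, with 2 cholangiocyte markers higher and 1 of the others lower. So did those of 7 nerve and Schwann cell markers (2.89 to 3.47 and 3.10 to 3.62 CPM), of which Snap25 was at 0. Sinusoidal endothelial markers summed to 578 to 654 and 559.7 to 623 CPM, with 0 of 8 past the threshold by edgeR (1 had an unadjusted p below 0.05, 0 were called with DESeq2 and 1 with limma voom with quality weights), and B cell markers to 67.9 to 101 and 14.9 to 65.7 CPM, with 1 of 9 lower. Of 15 cell cycle genes edgeR called 0. An unadjusted p below 0.05 was reached by 0, and 0 were called with DESeq2 and 0 with limma voom with quality weights. Mki67, the proliferation marker, stood at 116 ± 19.8 and 162 ± 47.6 CPM.

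The genes whose pattern over the 6 libraries was most like that of Afp were Rgs16, Il1rn, Trem2, Gpr64 and Slit3. Likeness was the root mean square difference of mean-centred log2 CPM, which was 0.31, 0.33, 0.35, 0.36 and 0.37, among 12769 genes with a mean of at least 1 CPM. Il1rn, the antagonist of the interleukin 1 receptor, had a log2 change of 2.27 ± 0.35, and Trem2, a receptor of macrophages, of 2.26 ± 0.45. For Rgs16, Gpr64 and Slit3 it was 2.66 ± 0.47, 3.36 ± 0.64 and 2.47 ± 0.42. These 5 genes were picked for likeness over the same libraries, so a rise like that of Afp follows from the choice. All 5 were called higher by edgeR. Il1rn lost its call under 1 of 19 alternatives, Rgs16, Trem2 and Slit3 under 4 each, and Gpr64 under 5. No other member was as close to Afp: the difference was 1.09 for Bex1 and Scd2, 1.15 for Gpc3, 1.37 for Igf2bp3, 1.41 for Bex2 and 1.77 for Alb.

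**Figure D4:**
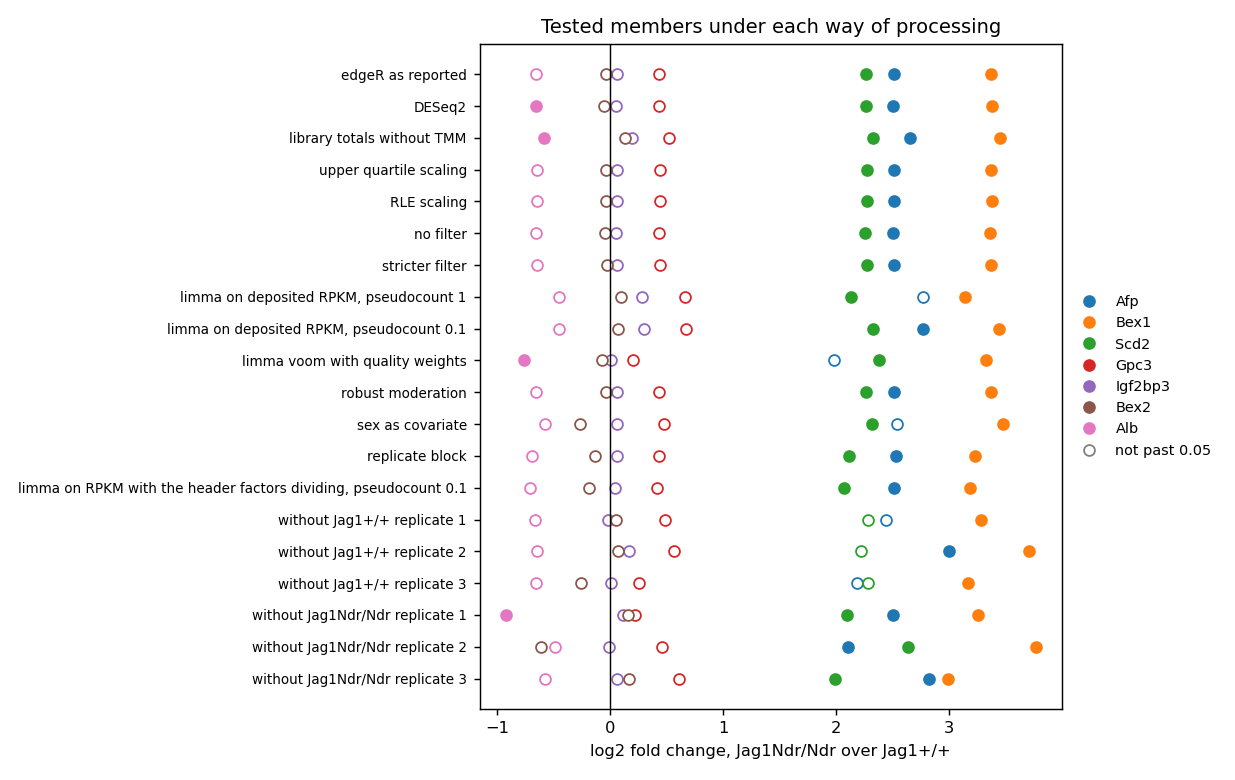
Each row is a way of processing and each point the log2 change of a tested member under it (Jag1Ndr/Ndr over Jag1+/+), filled where the adjusted p was under 0.05. Bex1 is filled in every row. Scd2 opens in the 3 rows that leave out a Jag1+/+ library, Afp in 5 rows, and Alb is filled in 4. Bex2 and Igf2bp3 lie on both sides of 0.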

How the data were processed

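The 6 libraries were grouped by the genotype in their labels. The deposited table holds the authors' raw whole read counts for each RefSeq gene and RPKM, which per the file headers carry a TMM factor per library. The authors multiplied by it, where edgeR divides: once it is divided out, RPKM track the reads (98.2% of values within 5%, 10023 genes). The submitters' processing notes name STAR and mm10, versions not given. The read counter and read length are not given in the sources used here.

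The members and lists were chosen with earlier results of these data known. Counts of 24489 entries (93 spike-in and eGFP entries with 5 reads left out) were filtered with filterByExpr to 13819 genes, given TMM factors and compared by the two-sided quasi-likelihood test of edgeR, with a Benjamini-Hochberg adjusted p of 0.05 as the threshold. Versions were R 4.3.3 with DESeq2 1.42.0, edgeR 4.0.16 and limma 3.58.1. A standard error is the fitted log2 change divided by the root of F. The common biological coefficient of variation was 0.243. Length-scaled RPKM are the deposited RPKM with the header factor replaced by edgeR's scaling. Of 218 listed genes 213 matched an entry. Lists are described by counts and medians, with no set test. Named genes are the members, genes of their families and the Lin28 list, up to 4 called and 2 abundant uncalled genes of other lists, and the 5 most like Afp. Zhx2, Zbtb20, Foxa2, Cebpb, Nfib, H19, Igf2, Lpl, Scd1, Sall4, Cyp3a16, Mdk and Dlk1 were chosen after their values were seen. Not all genes under the rule are described. The fit was tested on simulated counts for 13687 genes, where it called 42 of 99 genes changed 2-fold, 89 of 98 changed 4-fold and 12 of 13490 unchanged ones. Both simulated genotypes had the same spread per gene and few genes changed, unlike the libraries here, so these rates may not carry over. Alternatives were other scalings and filters, DESeq2, limma, robust moderation, sex as a covariate, a replicate block and leaving out each library. The header factors dividing, with a pseudocount of 0.1, were added after seeing the data, as were the counts per list.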

Additional observations from a re-analysis of the deposited data

How the results depend on the processing

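Afp, Bex1, Scd2, Gpc3 and Alb kept their direction under all 19 alternatives. The number of members called, 3, ranged from 1 to 4 when a library was left out, and the log2 difference in the Afp to Alb ratio, 3.22, from 2.69 to 3.62. The number of genes called was 1054, and 282 to 1211 when a library was left out. It was 1866 by DESeq2, 211 and 418 by limma on the deposited RPKM with pseudocounts of 1 and 0.1, 804 by limma on RPKM with the header factors dividing (pseudocount 0.1), 596 with sex as a covariate and 1594 with quality weights. Values near 0 changed sign. With library totals Bex2 stood at 0.13. In the deposited RPKM with pseudocounts of 1 and 0.1, Bex2 was 0.094 and 0.068, Gc 0.11 and 0.11, and Gpc4 0.011 and 0.0075. Zhx2 was -0.071 with sex as a covariate and -0.0061 with the header factors dividing. When a library was left out, Bex2 ranged from -0.62 to 0.17, Igf2bp3 from -0.020 to 0.17, Gc from -0.22 to 0.11, Hnf4a from -0.021 to 0.21, Lpl from -0.55 to 0.038 and Zhx2 from -0.12 to 0.081. The causes were not tested. Same-numbered libraries had correlations of their deviations across genes of 0.0856, 0.170 and 0.195, each library correlating best with its own number. Their descriptions in the labels also share a number prefix, whose meaning the labels do not state, so the numbers were not taken as pairs. With the replicate block 1430 genes and 3 members were called, no member's call changed, and the Afp to Alb difference stayed at 3.22 (exact p = 0.25, the smallest that 3 pairs allow). Lin28b is limited by depth.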

Other observations

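In both genotypes the library numbered 2 had the highest Afp and the library numbered 3 the lowest (1641 and 517 CPM in wild-type livers, 8785 and 2984 CPM in mutant ones), with replicate 1 between them. Within the same number Afp was therefore 6.21, 5.35 and 5.77 times as high in Jag1Ndr/Ndr replicates 1, 2 and 3 as in their Jag1+/+ counterparts. This was noticed in the data. Same-numbered libraries also share a number prefix in the labels' descriptions, and the labels do not say what it stands for. Among Jag1Ndr/Ndr libraries, replicate 2 was the highest in CPM for Afp, Bex2, Lin28b and Igf2bp3. It was the lowest for Alb, Bex1 and Scd2, and lay between the others for Gpc3. Tubb3, a tubulin of nerve cells, had 3 reads over all Jag1+/+ and 67 over all Jag1Ndr/Ndr libraries, which pooled over libraries is 22.4 times as many per library total (exact 95% interval for counting error only, 7.34 to 111), while the ratio of the mean CPM was 12.7.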
